A study of Homo sapiens with 3 samples.

Results

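Clustered histone genes are the intron-poor genes that lie mostly in groups, on chromosomes 1 and 6, with HIST4H4 alone on chromosome 12, and carry array names that begin with HIST1H, HIST2H, HIST3H or HIST4H. Every probe with such a name was taken, whatever its signal, which gave 83 of the 41000 probes on the array, for 65 genes. The 83 probes comprised 6 for linker histone H1, 22 for H2A, 23 for H2B, 17 for H3 and 15 for H4. By the positions in the deposited files, in the hg17 build, 64 probes lie on chromosome 6 between chr6:25834542-27969626, 17 on chromosome 1 and 2 on chromosome 12.

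The 3 samples were populations of 1205Lu, a human melanoma line derived from a lung metastasis that WM793 cells formed as a xenograft. The original monolayer (OM) had been kept in RPMI-1640 with 10% FCS for 14 days, and the melanoma bodies (MB) had grown as 3D bodies for 14 days in hESC medium, which is DMEM F-12 with 20% KO serum replacement. The new monolayer (NM) came from MB cells of 14 days that then spent 10 days in RPMI-1640 with 10% FCS, with remaining 3D bodies taken away before RNA was made. Each population is 1 array, medium and growth form changed together, and no genotype or drug differed.

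In the nucleus, H2A, H2B, H3 and H4 form the octamer around which DNA is wound, and H1 binds where the DNA enters and leaves it. Most clustered genes are switched on in S phase, when new DNA has to be packed. Their mRNAs end in a conserved stem-loop, bound by SLBP, in place of a poly(A) tail, while a few of the genes also give longer polyadenylated mRNAs in cells that have stopped dividing. Kits of the kind named in the labels are generally primed on poly(A), and which copies of a histone mRNA, tailed or not, gave the signals here was not tested. In RNA from a whole culture, fewer cells with a transcript and less transcript per cell cannot be told apart.

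The probes of 60 bases are shown where a result turns on them. In capitals in the first set is the run of bases that the H2B probes at the carboxyl end of the coding region had in common, 11 bases in HIST1H2BB and 17 in the others. These 6 probes were singled out after their values had been seen, because they moved together.
HIST1H2BB (chr6:26151485-26151544, minus strand): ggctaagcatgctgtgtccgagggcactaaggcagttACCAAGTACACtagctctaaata
HIST1H2BE (chr6:26292319-26292378, plus strand): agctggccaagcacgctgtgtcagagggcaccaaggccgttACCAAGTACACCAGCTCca
HIST1H2BF (chr6:26308082-26308141, plus strand): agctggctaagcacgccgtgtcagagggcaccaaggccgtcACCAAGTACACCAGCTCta
HIST1H2BH (chr6:26360201-26360260, plus strand): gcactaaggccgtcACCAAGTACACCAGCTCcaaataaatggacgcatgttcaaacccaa
HIST1H2BL (chr6:27883265-27883324, minus strand): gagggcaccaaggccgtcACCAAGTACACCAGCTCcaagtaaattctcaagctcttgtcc
HIST1H2BO (chr6:27969567-27969626, plus strand): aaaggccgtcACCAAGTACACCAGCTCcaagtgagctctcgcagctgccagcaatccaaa

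The run of 17 bases occurs in 5 of the 41000 probes, which are the 5 shown with it, and its reverse complement in 0. Where pairs of the 6 probes overlap, between 69.6% and 97.3% of the bases are identical. The probes of HIST1H2BH, HIST1H2BL and HIST1H2BO run 22, 18 and 26 bases past the stop codon, into sequence that differs between the genes. How far the 6 signals come from 6 transcripts or from fewer cannot be told apart.

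For comparison, the probes of linker histone genes HIST1H1A and HIST1H1C are printed with their longest shared run, 11 bases, in capitals. Both genes were higher in MB.
HIST1H1A (chr6:26125330-26125389, minus strand): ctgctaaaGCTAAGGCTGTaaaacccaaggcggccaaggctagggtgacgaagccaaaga
HIST1H1C (chr6:26164029-26164088, minus strand): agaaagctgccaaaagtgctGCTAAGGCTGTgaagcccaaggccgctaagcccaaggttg

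The histone stem-loop itself lies in 2 member probes. It reads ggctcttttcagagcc in that of HIST2H2AA3 and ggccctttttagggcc in that of HIST1H4K, the ends pairing to form the stem around 4 bases of loop. The probes of HIST1H4J and HIST1H4K, both for histone H4, share the run of 37 bases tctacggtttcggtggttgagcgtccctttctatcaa, which covers the end of the coding region and the start of the sequence after it.

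Of the 83 probes, 70 gave a signal well above background on the 3 arrays, 5 on some of them and 8 on none. Each member probe was printed in 1 spot, none of these spots was marked as an outlier, and none was saturated. The 8 probes without signal were those of HIST1H1B, HIST1H1T, HIST1H2BA, HIST1H4G and both of HIST4H4, with 1 of 2 probes each of HIST1H2AK and HIST1H2BJ. None of them passed 15.2 a.u. on any array. HIST1H1T, HIST1H2BA, HIST1H2AA and HIST3H3 are known as testis histones. HIST1H2AA gave 41.6 a.u. (OM), 42.1 (MB) and 57.9 (NM), and HIST3H3 gave 102840, 91213 and 110523 a.u.

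Signals on the arrays are given unscaled in arbitrary units (a.u.). Ratios are log2 ratios after scaling the arrays to their mean signal for 3 housekeeping genes (GAPDH, ACTB, HSP90AA1). A probe that was dim on 1 of the 2 arrays compared was set against the lowest signal well above background there, so its ratio is a bound. Without replicate cultures there is no test across samples, and the yardstick is technical: over probes printed in 10 spots, the log2 ratio of single spots had SDs of 0.075 (MB over OM), 0.074 (MB over NM) and 0.075 (NM over OM). That spread leaves out the variation between cultures. Over the arrays, the probes well above background numbered 28746 (OM), 29125 (MB) and 26516 (NM). Of 9 melanocyte and melanoma markers, 7, 7 and 6 were well above background on OM, MB and NM, with S100B, CSPG4 and SOX10 among them, and TYR and TYRP1 were not on any array. The summed scaled signal of the 9 was 50956, 90288 and 35860 a.u. Most of it is S100B and CSPG4, at 43760 and 34069 a.u. unscaled on MB. For MB over OM these had 0.83 and 0.90, while SILV had -0.42 and DCT -0.05. The sum for 10 markers of blood, endothelial, epithelial and fibroblast cells was 3278, 2309 and 3391 a.u. Of the 10, ACTA2, KRT14 and CD3E were well above background on the 3 arrays, ACTA2 at 2905, 1648 and 2700 a.u., KRT14 at 213, 373 and 118 a.u. and CD3E at 110, 84.8 and 87.4 a.u. on OM, MB and NM. PECAM1 (87.7 a.u.) and DCN (26.8 a.u.) were so on MB alone, and PTPRC, CDH5, TACSTD1, KRT5 and LUM on none, with no signal over 13.2 a.u. The part of other cell types in the histone values was not tested.

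As a whole, the clustered histone genes moved little between the populations. For MB over OM the median log2 ratio of the 75 probes with a value was -0.07, beside 0.10 over the 29906 probes of the array with a value. At 2-fold, 5 member probes (6.67%) were higher in MB, where 6.75% of all probes were, and 5 (6.67%) were lower, where 4.44% of all probes were. At the 5-fold threshold used in the study, 1 member passed, beside 1.24% of all probes. The share of members past 2-fold was thus near that of the array.

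Between MB and NM the median was -0.04 over 75 probes, beside 0.04 over 29539 probes. In that comparison 3 members were 2-fold higher in MB (3 of 75, beside 13.0% of all probes) and 1 was lower (1.33% of 75, beside 9.20%). None passed 5-fold, beside 2.97% of all probes. Between NM and OM the median was 0.11 over 71 probes, beside 0.03 over 29071 probes. There 2 members were 2-fold higher in NM (2.82%, beside 4.18% of all probes) and 7 were lower (9.86%, beside 5.67%). None passed 5-fold, beside 0.922% of all probes. Of the 7 probes lower in NM, 4 were H2B carboxyl-end probes and 2 were the H4 probes that share a run of bases.

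The families differed in their medians. For MB over OM, H1 lay at 0.64 (4 probes), H2A at -0.01 (21), H2B at -0.09 (21), H3 at -0.19 (17) and H4 at -0.11 (12). For NM over OM the order changed, with H2A at 0.34 (20 probes), H1 at 0.11 (4), H3 at 0.08 (16), H4 at -0.13 (12) and H2B at -0.27 (19). Probes within a family share sequence, so these medians are descriptions of probes and not of independent genes. Over 7 ways of scaling and background correction the sign of each family's median held for MB over OM (H1 0.45 to 0.64, H2A -0.20 to -0.003, H2B -0.28 to -0.07, H3 -0.38 to -0.18, H4 -0.30 to -0.11), while for NM over OM it turned in H1 (-0.08 to 0.18) and H3 (-0.11 to 0.15), and for MB over NM in H2B (-0.04 to 0.24). Among the 70 probes measured on the 3 arrays, 51 lay below the array's median ratio of MB over OM, with 13 of 16 for H3, 10 of 11 for H4, 14 of 20 for H2A, 13 of 19 for H2B and 1 of 4 for H1.

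**Figure D1:**
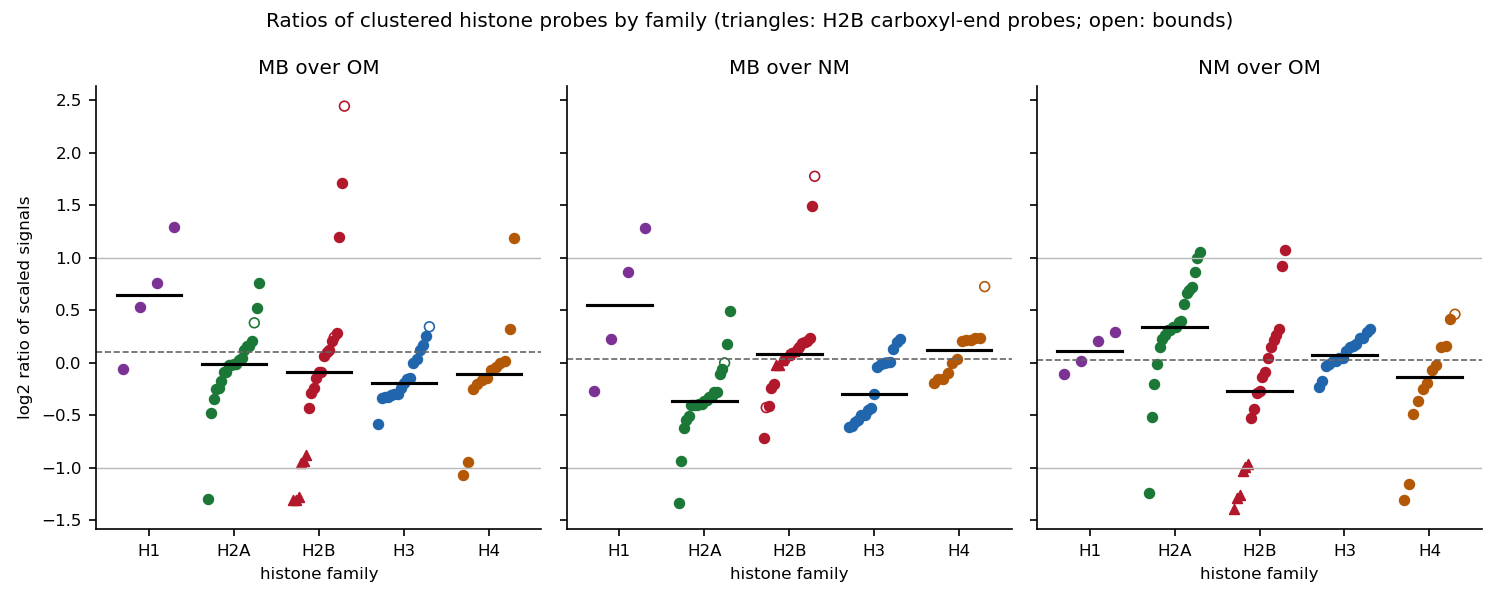
Log2 ratio of scaled signals for each member probe well above background on at least 1 array, by histone family, for the 3 comparisons. Black bars are family medians, the dashed line is the median over all probes of the array, grey lines mark 2-fold, triangles are the H2B carboxyl-end probes and open circles are bounds. The triangles lie between -1.31 and -0.88 for MB over OM and between -1.39 and -0.96 for NM over OM, and near 0 for MB over NM.

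Of the linker histones, HIST1H1C and HIST1H1A were higher in MB than in both monolayers. HIST1H1C, which encodes histone H1.2, gave 1319 a.u. in OM, then 3164 in MB and 1168 in NM. Its scaled signal was 2.45-fold higher in MB than in OM and 2.43-fold higher than in NM, and NM and OM were level (1.01-fold), within the spread of single spots. HIST1H1A, which encodes H1.1, gave 1362, 2251 and 1110 a.u., 1.69-fold higher in MB than in OM and 1.82-fold higher than in NM. Each of these values is 1 spot on 1 array.

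The H1 probes did not all do so. HIST1H1D, for H1.3, gave 157 a.u. (OM), 221 (MB) and 169 (NM), a log2 ratio of 0.53 for MB over OM. HIST1H1E, for H1.4, gave 1092, 1025 and 1107 a.u., with -0.06 for MB over OM, less than the spread of single spots, and -0.27 for MB over NM. HIST1H1E was thus level between OM and MB, where HIST1H1C rose.

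**Figure D2:**
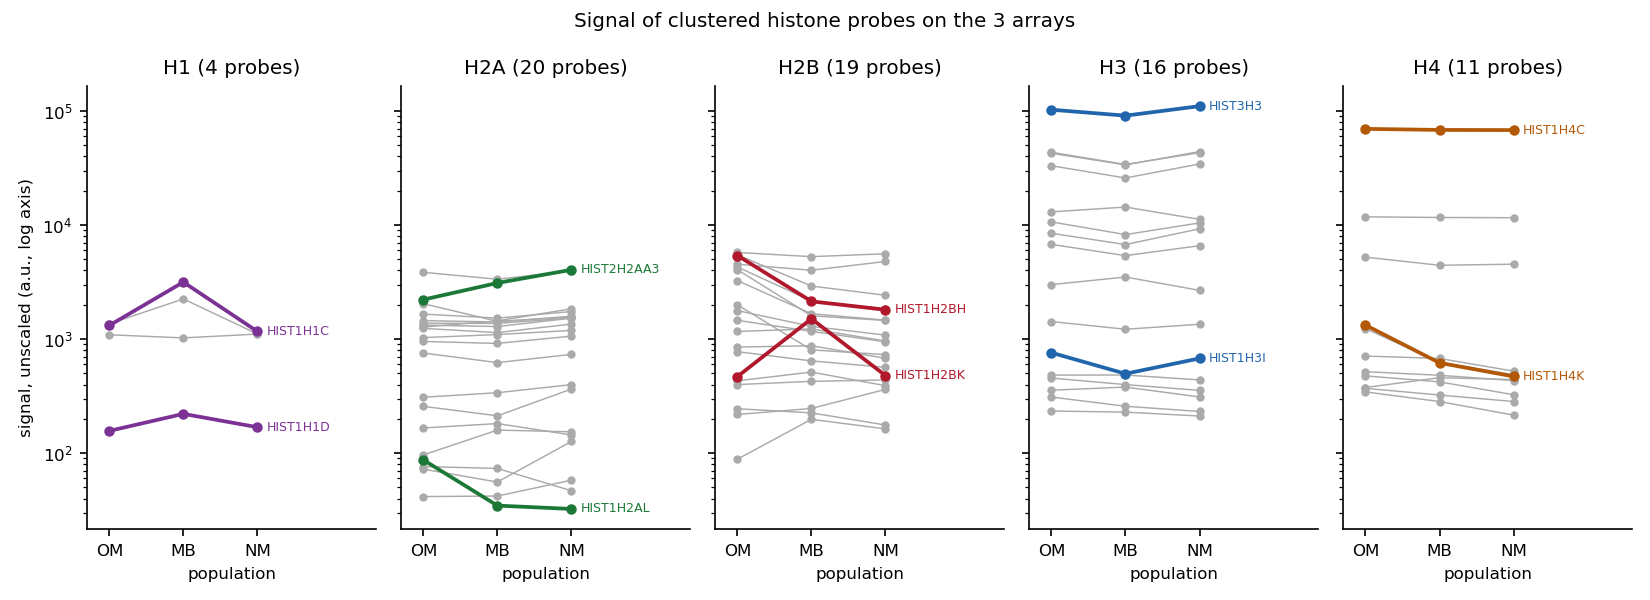
Unscaled signal in a.u. (log axis) of the 70 member probes that were well above background on the 3 arrays, 1 line a probe, by family. HIST1H1C and HIST1H2BK peak on MB, HIST1H2BH and HIST1H4K fall from OM to MB and stay low on NM, and HIST1H4C runs flat at 69837, 68361 and 68152 a.u.

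The H2A probes as a family lay near 0 for MB over OM and a little above it for NM over OM. The 15 H2A probes in the coding region that were measured on the 3 arrays had medians of -0.01 (MB over OM), 0.32 (NM over OM) and -0.32 (MB over NM). Of the 20 H2A probes, 16 lay above the array's median for NM over OM. HIST2H2AC, for instance, gave 3854 a.u. in OM, then 3352 in MB and 3961 in NM with its stronger probe, with log2 ratios of -0.17 for MB over OM and 0.23 for NM over OM. Its other probe gave 2045, 1435 and 1557 a.u., with -0.48 and -0.20, so the probes of HIST2H2AC differed in direction for NM over OM. HIST3H2A gave 1659, 1528 and 1747 a.u., with -0.09 and 0.26. MB is the lowest array with each of these 3 probes.

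A few H2A members stood away from that level. HIST2H2AA3, which lies on chromosome 1 and whose probe holds the stem-loop shown above, gave 2220 a.u. (OM), 3109 (MB) and 4056 (NM), so NM was 2.08-fold above OM but short of 2-fold with the 75th percentile, quantile scaling, no scaling and normexp (log2 ratios of 0.87 to 0.996). Its other probe gave 257, 212 and 365 a.u., lower in MB than in OM (-0.24) where the first was higher (0.52), though NM was highest with both. HIST2H2AB also had probes at odds, with 96.5, 159 and 154 a.u. for the probe with the highest MB over OM ratio of the family (0.76) and 1327, 1290 and 1527 a.u. for the other (-0.01).

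HIST1H2AC, one of the members known to give polyadenylated mRNA, gave 72.4 a.u. in OM, then 55.8 in MB and 127 in NM. Its MB signal was 2.53-fold below that of NM, the lowest MB over NM ratio among the members, and NM was 1.99-fold above OM. With background left in and with normexp the MB over NM log2 ratio of HIST1H2AC was -0.89 and -0.80, short of 2-fold. HIST1H2AL had the lowest MB over OM ratio in H2A, with 87.2, 34.7 and 32.4 a.u., 2.46-fold lower in MB and 2.36-fold lower in NM than in OM. These last signals are near background, and both calls of HIST1H2AL were lost with background left in (-0.61 for MB over OM, -0.43 for NM over OM) and with normexp (-0.49 and -0.31).

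H2B held the most movement, in opposite directions. The 6 carboxyl-end probes printed above fell together from OM to MB and stayed low in NM. HIST1H2BB gave 1998 a.u. (OM), 805 (MB) and 731 (NM). HIST1H2BH gave 5413, 2145 and 1810 a.u., and HIST1H2BO 4061, 1603 and 1458 a.u. In these 3 genes OM was 2.43, 2.47 and 2.48 times as high as MB after scaling.

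The other probes of the set changed by a little less. HIST1H2BE gave 3265 a.u. in OM, then 1670 in MB and 1468 in NM. HIST1H2BF gave 4291, 2165 and 1848 a.u., and HIST1H2BL 5487, 2922 and 2424 a.u. Here OM was 1.91, 1.94 and 1.84 times as high as MB. So 3 of the 6 probes were 2-fold lower in MB than in OM, beside 4.44% of all probes. In NM 4 were 2-fold lower than in OM, beside 5.67%. The 6 were grouped with their values in view, so these counts are descriptions. For NM over OM, HIST1H2BF fell just short with the geometric mean, normexp or background left in (-0.96 to -0.99). With the 75th percentile and quantile scaling, 6 passed in both comparisons, and with no scaling 6 passed for NM over OM. Over the 6, the median log2 ratio was -1.12 for MB over OM and -1.14 for NM over OM, and 0.05 for MB over NM, where single probes ran from -0.02 to 0.11. By scaling, the median for MB over NM ran from -0.063 to 0.207.

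Other H2B probes in the coding region did not fall in this way. The 9 of them ranged from -0.43 to 0.29 for MB over OM, with a median of 0.07, so the ranges of the 6 and the 9 do not overlap, though the 6 were grouped with their values in view. HIST3H2BB had the lowest value of the 9, with 1778 a.u. (OM), 1294 (MB) and 1084 (NM). HIST1H2BN and HIST2H2BE, whose coding probes share a run of 41 bases, had -0.29 and -0.24. HIST1H2BG gave 218, 247 and 363 a.u., and was highest in NM (0.92 for NM over OM).

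Probes on the opposite strand did not reach 2-fold. A probe of HIST1H2BD and a probe of HIST3H2BB match the coding strand's complement, and which copies they read was not tested. They gave 5757, 5289 and 5607 a.u. and 4541, 4019 and 4798 a.u. The sense probe of HIST1H2BD gave 431, 514 and 390 a.u., with 0.29 for MB over OM where the opposite probe had -0.09.

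**Figure D3:**
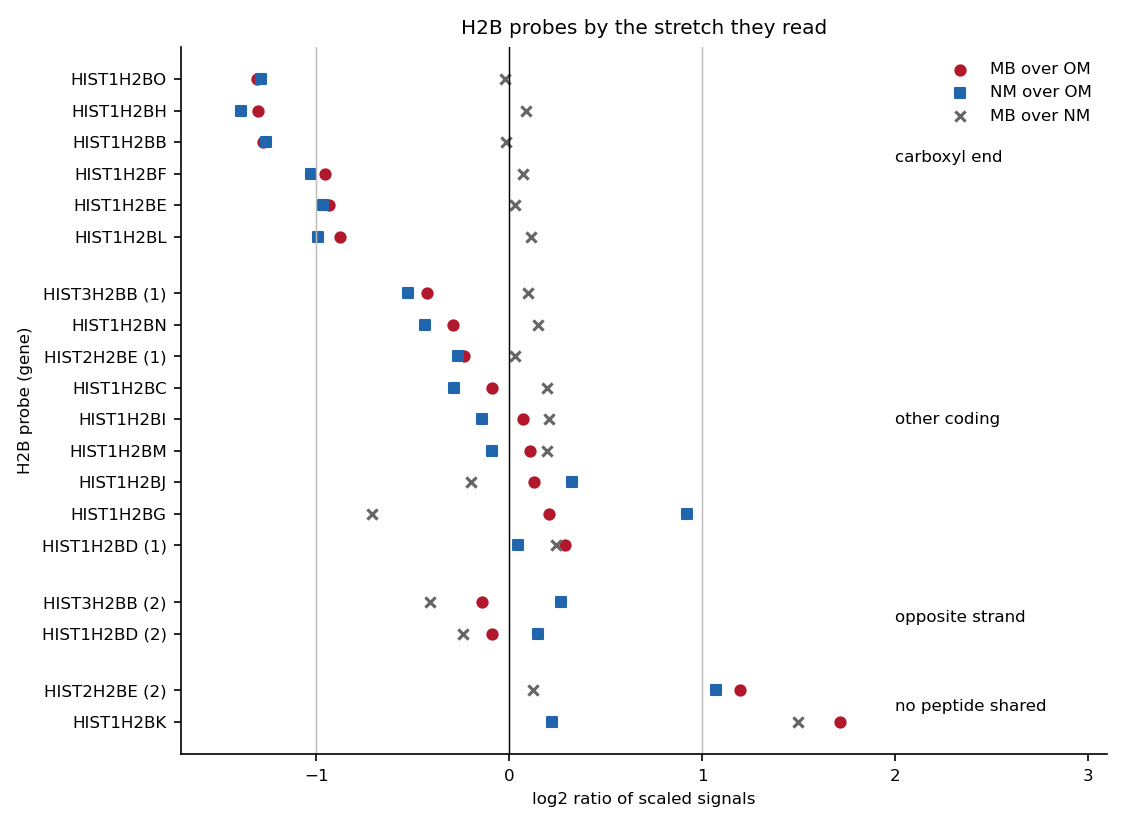
Log2 ratios of the 19 H2B probes well above background on the 3 arrays, 1 row a probe (numbers in brackets tell apart probes of a gene), grouped by the stretch they read; grey lines mark 2-fold. In the carboxyl-end group MB and NM lie together near -1 against OM, and MB over NM lies near 0. HIST1H2BK, at 1.72 for MB over OM, and a probe of HIST2H2BE, at 1.19, lie on the other side.

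HIST1H2BK rose in MB more than any other member measured on the 3 arrays. It gave 469 a.u. in OM, then 1508 in MB and 480 in NM, 3.29-fold higher in MB than in OM and 2.82-fold higher than in NM. OM and NM lie close together (0.22 for NM over OM) and MB well above both. Its probe, at chr6:27221897-27221956 on the minus strand, shares no run of 6 amino acids with the probes of other H2B genes. The RefSeq gene model of HIST1H2BK (now H2BC12) spans 8566 bases.

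HIST2H2BE (now H2BC21) gave 3 answers with 3 probes. The coding probe gave 776, 644 and 566 a.u., and the probe at chr1:146669487-146669546, outside the H2B coding region, gave 88.5, 198 and 163 a.u. The latter was 2.29-fold higher in MB and 2.10-fold higher in NM than in OM. With the 75th percentile, no scaling and normexp, 0 members were 2-fold higher in NM than in OM, so its NM call was lost there. With background left in the only such member was HIST2H2AA3, so the call was lost there too. For MB over OM, 3 members were 2-fold higher with normexp and with background left in, in place of 5. Whether this probe of HIST2H2BE was among the 3 is not given here. The last probe was well above background on MB only, at 24.2 a.u., with 4.55 on OM and 27.5 on NM, where it was not well above background, and its ratios are bounds. A second probe of HIST1H2BN was likewise bright on MB alone, at 111 a.u. with 4.46 on OM and 6.13 on NM, at least 5.45-fold higher than OM. It is the member that passed 5-fold. Its spot lies 1 position from another of the 84 spots over 100 a.u. on MB that were not well above background elsewhere, the coding probe of HIST1H2BN gave 1462, 1170 and 948 a.u., and the part of the spot's place in this value was not tested.

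Genes with longer RefSeq models were set apart from the short ones. Of the 65 genes, 58 have models of 386 to 797 bases, and 7 have models over 1000 bases, among them HIST1H2BC, HIST1H2BD, HIST1H2BK, HIST2H2BE and the H3 genes HIST1H3D, HIST1H3E and HIST2H3PS2. A list of 7 members known to give polyadenylated mRNA (HIST1H1C, HIST1H2AC, HIST1H2BC, HIST1H2BD, HIST1H2BJ, HIST1H2BK and HIST2H2BE) had 10 probes with a value for MB over OM. Among these 10 probes 3 were 2-fold higher in MB (beside 6.75% of all probes), 0 were lower (beside 4.44%), and the median was 0.18. For MB over NM 2 were higher and 1 was lower (beside 13.0% and 9.20%), with a median of 0.08. The list was drawn up with results of these arrays known and is not independent of them. HIST1H2BJ gave 399, 426 and 439 a.u. and HIST1H2BC 245, 225 and 177 a.u., so members of this list did not all follow HIST1H2BK.

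H3 was a little lower in MB than in both monolayers. None of its probes reached 2-fold in any of the comparisons. Of all probes, 6.75% were 2-fold higher and 4.44% lower for MB over OM. The shares were 13.0% and 9.20% for MB over NM, and 4.18% and 5.67% for NM over OM. HIST3H3, known as the testis histone H3t, gave 102840 a.u. (OM), 91213 (MB) and 110523 (NM). Whether this probe reads its own gene's transcript was not tested, and its longest run in common with another member's H3 probe is 14 bases, with HIST1H3C. HIST2H3A gave 43547, 34027 and 43175 a.u. and HIST2H3PS2 42676, 33754 and 44124 a.u. Their probes share 40 bases, and in both MB is the low array, with -0.32 and -0.31 for MB over OM.

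Within H3 the ratios ran from -0.58 to 0.25 for MB over OM. HIST1H3I was lowest, with 760 a.u. in OM, then 497 in MB and 677 in NM, a log2 ratio of -0.58. HIST1H3E was highest, with 3008, 3504 and 2679 a.u. The probes of HIST1H3B gave 8476, 6752 and 9282 a.u. (-0.30) and 484, 484 and 439 a.u. (0.03), and those of HIST1H3D 1426, 1221 and 1350 a.u. (-0.19) and 357, 380 and 311 a.u. (0.12), so the direction depended on the probe in both genes.

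HIST1H4C and HIST1H4L were level between MB and OM, while HIST1H4J and HIST1H4K were lower in MB. HIST1H4C gave 69837 a.u. (OM), 68361 (MB) and 68152 (NM), HIST1H4L gave 11821, 11665 and 11614 a.u., and HIST1H4B gave 5236, 4444 and 4542 a.u. For MB over OM the first and second differed by 0.00 and 0.01, less than the spread of single spots, and HIST1H4B by -0.20. HIST1H4J gave 1237, 628 and 488 a.u. and HIST1H4K 1328, 619 and 471 a.u., with OM 1.93 and 2.10 times as high as MB, and 2.22 and 2.47 times as high as NM. For HIST1H4K the MB over OM log2 ratio fell just short of 2-fold with normexp (-0.97) and with background left in (-0.99). Both were low in MB and lower still in NM. They lie on opposite strands, at chr6:27900155-27900214 and chr6:27906933-27906992, and since their probes share 37 bases, a common signal and a signal of each gene cannot be told apart.

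The other 9 H4 probes measured on the 3 arrays ran from -0.25 to 0.32 for MB over OM and from -0.49 to 0.42 for NM over OM. HIST1H4E had the highest MB over OM ratio among H4 probes measured on the 3 arrays, with 376, 459 and 442 a.u. (0.32). HIST1H4A was 2.28-fold higher in MB than in OM, but at 24.1 a.u. in OM, then 53.7 in MB and 22.9 in NM it is near background. Of the 15 H4 probes, 3 were not well above background on any array.

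Many H2A and H2B genes stand side by side on opposite strands and share the stretch between them as promoter. Of the member genes measured on the 3 arrays, 10 such pairs had probes within 2000 bases of each other. In HIST1H2BO and HIST1H2AM, the H2B gene had -1.31 for MB over OM and the H2A gene -0.09. In HIST1H2BF and HIST1H2AD the values were -0.95 and 0.21, and in HIST1H2BK and HIST1H2AH 1.72 and 0.12. HIST1H2BO and HIST1H2BK passed 2-fold and HIST1H2BF fell just short of it (1.94-fold), while the 3 H2A genes lay between -0.09 and 0.21. The probes of HIST1H2BO and HIST1H2BF are carboxyl-end probes. That of HIST1H2BK shares no run of 6 amino acids with the probes of other H2B genes. Those of the 3 H2A genes read coding sequence, so gene and probe type cannot be told apart here. The other 7 pairs had H2B values from -0.43 to 0.21 and H2A values from -0.34 to 0.16.

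**Figure D4:**
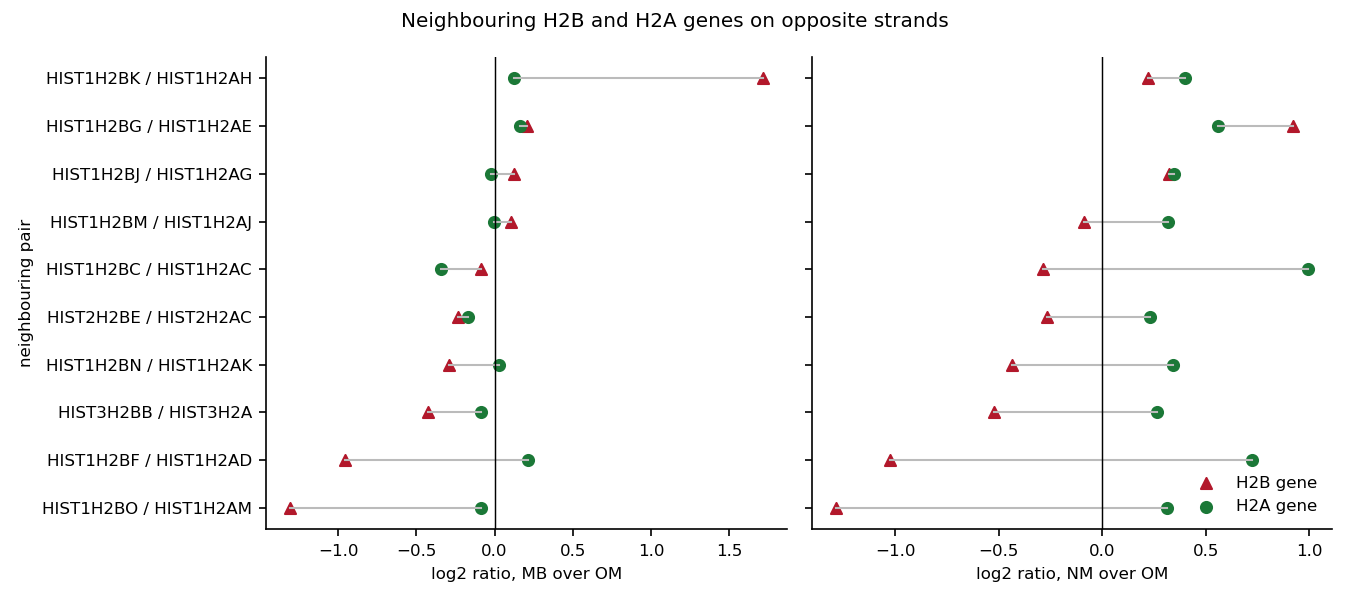
Log2 ratios of neighbouring H2B (triangles) and H2A (circles) genes on opposite strands, 1 row a pair, for MB over OM (left) and NM over OM (right). HIST1H2BO and HIST1H2BF lie well to the left of their H2A neighbours in both panels, and HIST1H2BK to the right of its neighbour for MB over OM.

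RefSeq promoters (GRCh38.p14) were found for 60 of the 65 genes, and the 250 bases before the start were searched on both strands for the octamer ATTTGCAT, which POU2F1 (Oct-1) binds in H2B promoters, for CCAAT and for TATAAA. The octamer lies in 11 of 14 H2A promoters, 13 of 17 H2B promoters, 1 of 11 H3 promoters and none of the 6 H1 and 12 H4 promoters, beside 1.66% of all 27305 promoters. CCAAT lies in 51 of 60 promoters of members (33.0% of all) and TATAAA in 40 of 60 (11.1% of all). Of the 6 H2B genes with carboxyl-end probes 5 have the octamer, and of the other 11 H2B genes 8 have it. Promoters of HIST1H2BH, which fell in MB, and HIST1H2BK, which rose, are shown with these motifs in capitals, on either strand. Both hold the octamer and CCAAT.
HIST1H2BH (GRCh38.p14, chr6:26251364-26251613, plus strand): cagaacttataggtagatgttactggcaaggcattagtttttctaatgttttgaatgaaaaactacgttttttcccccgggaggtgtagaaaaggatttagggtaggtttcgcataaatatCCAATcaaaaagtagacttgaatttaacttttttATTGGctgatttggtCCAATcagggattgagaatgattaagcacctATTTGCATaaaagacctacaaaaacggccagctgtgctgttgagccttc
HIST1H2BK (GRCh38.p14, chr6:27146859-27147108, minus strand): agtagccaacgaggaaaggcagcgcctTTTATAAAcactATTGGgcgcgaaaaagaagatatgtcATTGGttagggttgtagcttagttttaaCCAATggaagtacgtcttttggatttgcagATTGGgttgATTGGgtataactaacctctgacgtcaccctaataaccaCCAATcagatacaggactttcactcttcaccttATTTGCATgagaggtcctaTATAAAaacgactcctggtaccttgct

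Genes that make, process or carry histones were measured beside them. Of 20 genes of histone mRNA processing and transcription, none reached 2-fold in any comparison. Of all probes, 6.75% were 2-fold higher and 4.44% lower for MB over OM. The shares were 13.0% and 9.20% for MB over NM, and 4.18% and 5.67% for NM over OM. The median of the 20 genes was 0.44 for MB over OM and 0.29 for NM over OM, beside 0.10 and 0.03 over all probes. SLBP, which binds the stem-loop, gave 17205 a.u. (OM), 21430 (MB) and 19921 (NM). NPAT, the coactivator of clustered histone genes at the start of S phase, gave 482, 703 and 516 a.u. After scaling, SLBP stood 0.35 above OM in MB and 0.40 in NM, and NPAT 0.58 and 0.29.

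Of 19 histone chaperones, 1 reached 2-fold, UBN1, a subunit of the HIRA complex, at 8631, 16147 and 6005 a.u. and 1.27 for MB over NM. The 36 S phase and replication genes had a median of 0.14 for MB over OM, with 0 past 2-fold. For MB over NM their median was -0.18, with 1 higher (CDC25A, 1.05) and 3 lower in MB (CDT1, -1.63, RFC4, -1.18, and PRIM1, -1.10). Of all probes, 13.0% were 2-fold higher and 9.20% lower in that comparison. The 20 genes of G2 and M phase had medians of -0.06 and 0.00, with MKI67 higher in MB than in NM (1.05). Against OM, none of these genes moved by 2-fold in MB, where 6.75% of all probes were higher and 4.44% lower. CDT1, the licensing factor of replication origins, was 2-fold higher in NM than in OM (1.02), where 4.18% of all probes were.

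Histone genes outside the clusters mostly encode replacement variants, which are made throughout the cell cycle from polyadenylated mRNA. Of 15 such genes, 14 gave a value, with a median of -0.12 for MB over OM. H3F3A, for variant H3.3, gave 178118, 208969 and 168858 a.u., the strongest of the list, and did not reach 2-fold. HILS1, a linker histone-like gene of spermatids, gave 1715, 4305 and 491 a.u., with ratios of 1.36 against OM and 2.98 against NM in MB, and H1FX, for linker histone H1X, gave 7411, 5954 and 14489 a.u., with -1.44 for MB over NM.

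Genes that are not histones but lie within the same stretch of chromosome 6 had a median of 0.18 for MB over OM, over 32 genes with a value. Of these, 2 were 2-fold higher and 2 lower in MB, beside 6.75% and 4.44% of all probes. For MB over NM, 4 of 31 were higher and 2 lower (beside 13.0% and 9.20%), and for NM over OM 1 was higher and 4 were lower (beside 4.18% and 5.67%). In each of these last comparisons 2 of the genes passed 5-fold, and the values ran from -4.34 to 2.67 and from -2.69 to 3.06.

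**Figure D5:**
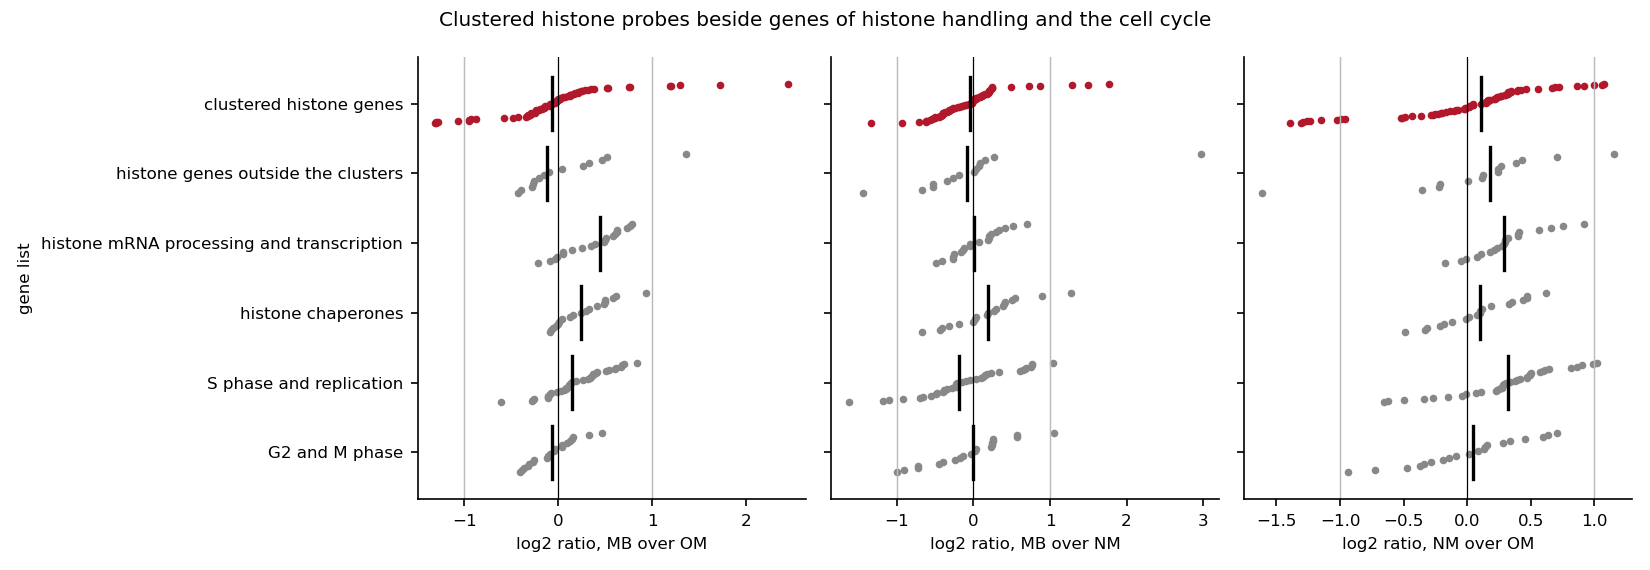
Log2 ratios of the clustered histone probes (red) and of the genes of 5 lists (grey), 1 point a probe or gene, for the 3 comparisons; vertical bars are medians and grey lines mark 2-fold. For MB over OM the clustered histone probes spread from -1.31 to 2.45, and the S phase genes from -0.61 to 0.84.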

How the data were processed

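Total RNA from 3 populations of 1205Lu cells was labelled with Cy3 and hybridised to 3 arrays, 1 per population, on the same slide. The authors deposited the intensity of each spot as Feature Extraction (version 9.5.3.1 per the file headers, 9.5 in the submitters' processing notes) gave it, local background subtracted, linear, in a.u., with no scaling between arrays. The deposited value table holds the same intensities (43376 of 43376 spots on each array within 0.1%; medians 213, 226 and 175 a.u. on OM, MB and NM), and scale and direction are thus known.

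Outlier spots were left out, spots of a probe averaged, and arrays scaled to GAPDH, ACTB and HSP90AA1 (arithmetic mean). A probe entered when well above background on at least 1 array. A coding probe is one that shares 6 amino acids in a row, in its own reading frames, with a probe of another gene of its family. With 1 array a group no test was run, and precision is limited by how few arrays there are. Members and gene lists were chosen with earlier results of these data known.

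Named members were the 3 genes of highest signal in each family, the highest and lowest MB over OM ratio in each family, those past 2-fold over 100 a.u. and those whose probes differed in direction; other members were named after their values had been seen. Beyond choosing names, the stronger probe of a gene, a list's strongest signal and the summed marker signals, levels of different probes were not compared. List genes were named when past 2-fold against OM or NM in MB, or as SLBP, NPAT or the list's strongest signal, and markers as far as a signal was found.

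Current symbols came from RefSeq (GRCh38.p14) for 64 genes by accession and 1 by synonym. Alternatives were 75th percentile, quantile, geometric mean or no scaling, normexp (limma 3.58.1, R 4.3.3, offset 50), signals with background left in, stricter and looser filters, outliers kept, the value table and 1 probe a gene. The code (Python 3.11.15, numpy 2.4.6, pandas 2.3.3, matplotlib 3.10.9) was tested on simulated data.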

Additional observations from a re-analysis of the deposited data

How the results depend on the processing

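Of 114 values of the medians and of the counts past 2-fold under 13 alternatives, 92 moved by less than the spread of single spots or, for counts, stayed within 1.5 times. Leaving out the H2B carboxyl-end probes, and the medians of those probes, were chosen after seeing the data. Scaling moved the median of all probes for MB over OM from 0.10 to -0.08 (75th percentile) and for NM over OM from 0.03 to -0.13 (no scaling). With the 75th percentile, quantile scaling, no scaling and the geometric mean, the member median for MB over NM was -0.17, -0.19, 0.056 and -0.15, and it was -0.15 with no filter. With the 75th percentile and quantile scaling it was -0.26 and -0.22 for MB over OM and 0.035 and 0.0226 for NM over OM, where no scaling gave -0.079. Relative to all probes, the member median for MB over OM lay between -0.22 and -0.07 in the 14 settings. The median of the H2B carboxyl-end probes was -1.31 and -1.32 for MB over OM with the 75th percentile and quantile scaling, -1.22 and -1.33 for NM over OM with the 75th percentile and no scaling, and -0.063, -0.062, 0.207 and -0.043 for MB over NM with the 75th percentile, quantile scaling, no scaling and the geometric mean.

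For MB over OM 6 members passed 2-fold in place of 10 both with normexp and without background subtraction, and for MB over NM 2 in place of 4 with normexp. The split of MB over OM was 5 higher and 9 lower with the 75th percentile and with quantile scaling, and that of NM over OM 0 higher and 9 lower with the 75th percentile and with no scaling. Without the H2B carboxyl-end probes 5 members passed 2-fold for NM over OM, 3 of them lower. For named genes past 2-fold in the main setting, each by its brightest probe, the alternatives gave 225 values, 1 for each call and setting. Of these values 15 fell short of 2-fold, and a call could be lost in more than 1 setting, so this is no share of calls. The calls lost were those of HIST1H2AC (MB over NM), HIST1H2AL (MB over OM and NM over OM) and HIST1H2BF (NM over OM). Those of HIST1H4K (MB over OM) and HIST2H2AA3 (NM over OM) were lost too, and 0 changed sign. The cause was not tested. Weaker probes of a gene, such as the 2-fold probes of HIST2H2BE and HIST1H2BN, are left out of this count. No paired analysis was possible because each population has 1 array, which also left no array to leave out. Below about 100 a.u. the signal over background limits every ratio, and probes of sister genes share bases.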

Other observations

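Well above background on MB alone, each in 1 spot, were 4 member probes, of which that of HIST1H2BN reached 111 a.u. and the others lay between 24.2 and 26.6 a.u. HIST1H2AG had a probe at 26.6 a.u. on MB with 10.7 on OM and 22.6 on NM, while its coding probe gave 954, 917 and 1062 a.u. HIST1H3G had a probe at 25.9 a.u. on MB with 12.9 and 7.38, while its coding probe gave 6776, 5397 and 6597 a.u. In both genes the coding probe moved by 0.30 or less on the log2 scale between MB and OM. The nearest other spot bright on MB alone lay 17 and 25 positions away for these probes, and 16 for the probe of HIST2H2BE.

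Among other cell type markers, PECAM1 was well above background on MB alone, at 87.7 a.u. with 12.3 on OM and 13.6 on NM, in 1 spot. KRT14 was higher in MB than in NM by 1.51 on the log2 scale. The part of either in the histone values was not tested.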
